A study of Mus musculus with 12 samples.

Results

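The genes described here encode the nuclear subunits of mitochondrial complex III, complex IV and ATP synthase. They were every gene of the counts table whose symbol was Uqcr followed by letters or digits, Cox followed by a digit from 4 to 8, or Atp5, which gave 44 of 55418 genes. Complex III contributed 8 genes, complex IV 19 and ATP synthase 17, and the choice used no measured value. The rule also took in *Cox6c2*, annotated as a processed pseudogene, *Cox7a2l*, which helps to join complexes III and IV into supercomplexes, and *Atp5s*, an assembly factor now named *Dmac2l*. The symbol *Atp5o* stood for 2 annotated genes. It left out *Cyc1* and the subunits encoded by mitochondrial DNA, which are given below as partners, and 7 pseudogene names ending in -ps, none of which exceeded 4 counts in a library.

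The mice were outbred CFW pups with no engineered allele. They received repeated injections of either morphine or saline as newborns, and the brainstem (pons and medulla) was taken at postnatal day 15, during spontaneous withdrawal in the morphine mice. The 12 libraries came from 12 mice, 3 in each group of saline males, saline females, morphine males and morphine females, and litter mates could fall in either treatment. RNA with poly-A tails was sequenced with 1 library per mouse, and the 12 libraries were multiplexed and pooled on 1 lane. All groups shared the injections and handling, so saline mice are injected controls and not untouched ones.

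Complex III passes electrons from ubiquinol to cytochrome c, complex IV passes them from cytochrome c to oxygen, and both pump protons across the inner mitochondrial membrane. ATP synthase uses that proton gradient to make ATP, with a catalytic F1 head, a ring of c subunits that turns in the membrane and a peripheral stalk that holds the head still. Neurons depend on this pathway for most of their ATP, and many subunits have paralogs used in heart, muscle, lung or testis.

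Total counts per library ran from 27850565 to 48097947, and these genes took 0.629% to 0.8737% of them. All 8 neuronal markers and the brainstem markers *Hoxa5*, *Hoxb5*, *Chat*, *Tph2* and *Slc6a2* were detected in every group, although the labels' extraction text names spinal cord. The library labelled morphine male 6 held *Xist*, transcribed from the inactive X chromosome, at 380 CPM, against at most 2.71 CPM in the other males and 547 to 971 CPM in females, and its Y-linked *Ddx3y* was at 12.8 CPM against at least 118 CPM in the other males. The main male, sex-combined and interaction results are therefore also given without it. Saline males 1 and 2 differed from saline male 3 by transcript GC content across all genes, and that pattern touched many of the genes below. The r of log2 deviations with GC content over all tested genes was 0.58, 0.68 and -0.67 in saline males 1, 2 and 3. Other libraries carried such a trend too. It was 0.05, -0.32 and -0.51 in saline females 4, 5 and 6 and 0.48 in morphine male 6. The other morphine libraries ran from -0.26 to 0.10. The labels name no batch or dam, so neither could be fitted. Where bulk tissue is measured, a smaller share of one cell type and less RNA per cell cannot be told apart.

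The highest levels belonged to genes of complex IV and ATP synthase. Levels between genes were compared as mean CPM (counts scaled to the library's total after its TMM correction) per kilobase of annotated exon over the 12 libraries. *Atp5b* (chr10:128083273-128090391, GRCm38, plus strand), the catalytic β subunit of F1, led ATP synthase at 344.1 CPM per kilobase, with the α subunit gene *Atp5a1* at 329.9. *Atp5l*, which encodes membrane subunit g, was lowest at 1.07 CPM per kilobase, over an exon union of 6443 bases that is the longest of the 44. In complex IV, *Cox6b1*, which encodes a subunit on the intermembrane side, stood at 349 CPM per kilobase and *Cox4i1*, the ubiquitous isoform of the largest nuclear subunit, at 184. In complex III, *Uqcrh*, the hinge protein that contacts cytochrome c1, was highest at 205.5 and *Uqcrq*, a small accessory subunit, was lowest at 24.4. Levels within complex III thus covered a narrower range than those of the other complexes.

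**Figure D1:**
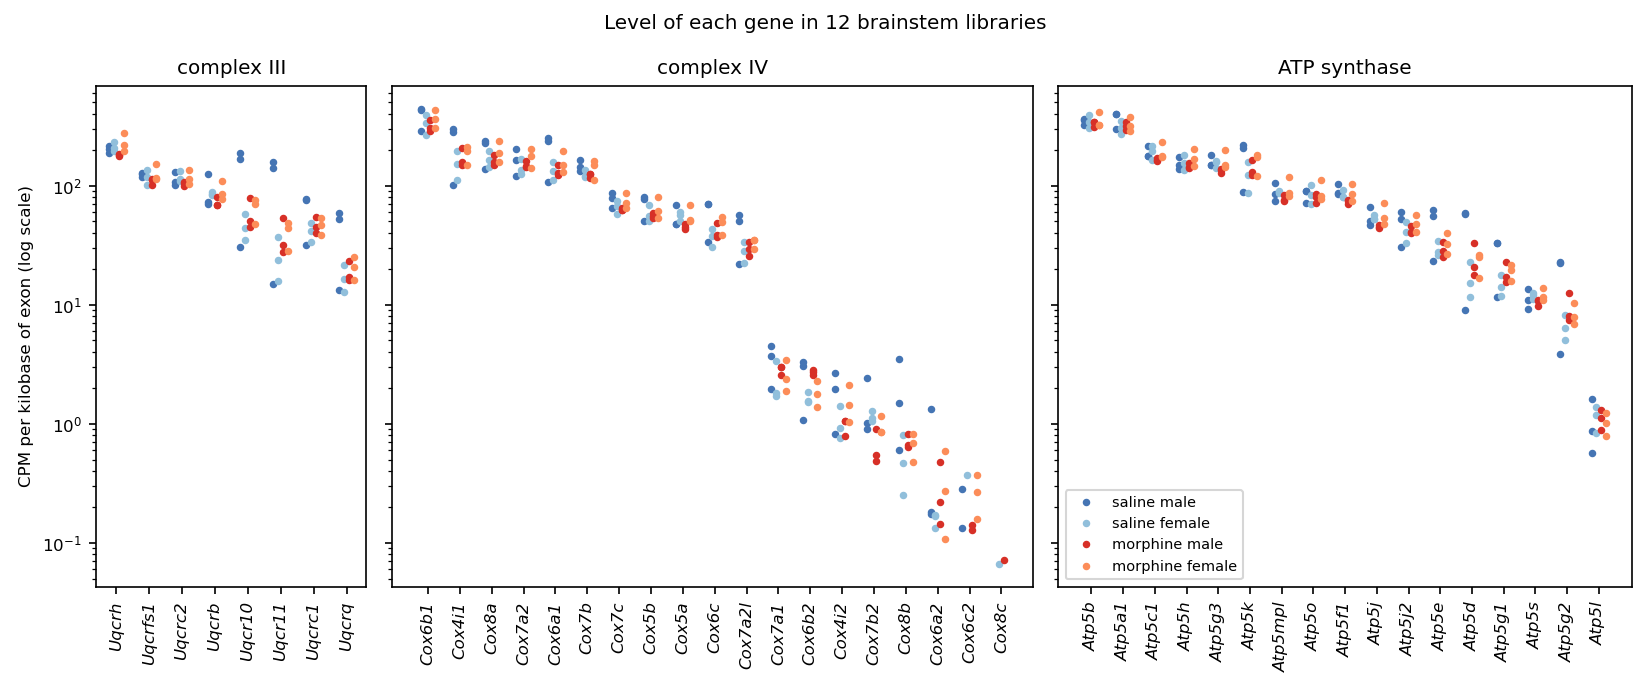
Level of each of the 44 genes in CPM per kilobase of exon on a log scale, 1 panel per complex, with 1 point per library coloured by group and libraries at 0 not drawn. Genes are ordered by mean level from *Atp5b* at 344.1 and *Cox6b1* at 349 down to the tissue-restricted complex IV genes.

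The isoforms known from muscle, heart and testis were at low levels. *Cox7a1*, a heart and muscle isoform, had a mean of 1.48 CPM and *Cox6b2*, a testis isoform, 2.40 CPM. *Cox8c*, a testis isoform, had 2 counts over the 12 libraries, and the pseudogene *Cox6c2* had 15. *Cox6a2* and *Cox8b*, muscle and heart isoforms, had 101 and 149 counts. *Cox8c*, *Cox6c2*, *Cox6a2* and *Cox8b* did not pass the filter on low counts in the fit of both sexes together, which left 40 of the 44 genes tested (41 in males, where *Cox8b* passed, 40 in females and 42 in the interaction). *Cox6a2* and *Cox8b* were highest in saline male 2, at 0.897 and 1.27 CPM. Saline male 2 also had the highest summed level of 7 skeletal muscle markers, 34.2 CPM against 1.65 to 6.62 CPM in the other libraries, and whether this carried the 2 isoforms was not tested.

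The main variation of these genes ran between individual libraries and not between treatments. *Uqcr11* (chr10:80402997-80406830, minus strand), the smallest accessory subunit of complex III, was at 89.3, 101.5 and 9.47 CPM in saline males 1, 2 and 3. It was at 23.7, 15.1 and 10.1 CPM in the 3 saline females. Morphine males had 20.5, 17.6 and 34.3 CPM and morphine females 31.3, 17.98 and 28 CPM. The highest library was thus 10.7 times the lowest, and both lay in the same group. Among 9974 genes with a mean of at least 10 CPM, *Uqcr11* ranked 13 by the SD of its log2 level over the libraries.

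The same libraries were extreme for several other small subunits, but not for all. *Uqcr10* (chr11:4701973-4704342, minus strand), another accessory subunit of complex III, ranged 6.15-fold and ranked 63, with 98 and 109.7 CPM in saline males 1 and 2 and 17.8 CPM in saline male 3. *Atp5d*, the δ subunit of F1, ranged 6.63-fold (rank 57), with 114 and 111 CPM against 17.3 CPM. *Atp5g2*, one of the genes for subunit c, ranged 5.93-fold (rank 81), with 38.1 and 37.8 CPM against 6.43 CPM. *Uqcrq* ranged 4.56-fold (rank 144). At the other end, the core genes *Atp5b* and *Uqcrc2* ranged 1.37-fold and 1.36-fold. Of the 40 genes tested, 22 (55%) were highest in saline male 1 or 2, against 32.61% of all tested genes, and 27 (67.5%) were lowest in saline male 3 or saline female 6, against 33.48%. The SD of log2 levels had a median of 0.27 over the 40 genes and 0.27 over all tested genes, and for genes of at least 10 CPM 0.26 against 0.20.

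Another library was high across all complexes. Morphine female 3 was above the gene's own mean for 37 of 40 genes and was the highest library for 15 of them, with a median deviation of 0.31 on the log2 scale. Its median deviation was 0.24 in complex III, 0.32 in complex IV and 0.31 in ATP synthase. Saline males 1 and 2 were at 0.40 and 0.40 in complex III, 0.56 and 0.35 in complex IV, but 0.11 and 0.05 in ATP synthase. The lowest library was saline female 6, with a median of -0.30, and 4 of its 40 genes were above their mean. So the high libraries included 1 morphine mouse and 2 saline mice, and the lowest ones included saline mice of both sexes.

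**Figure D2:**
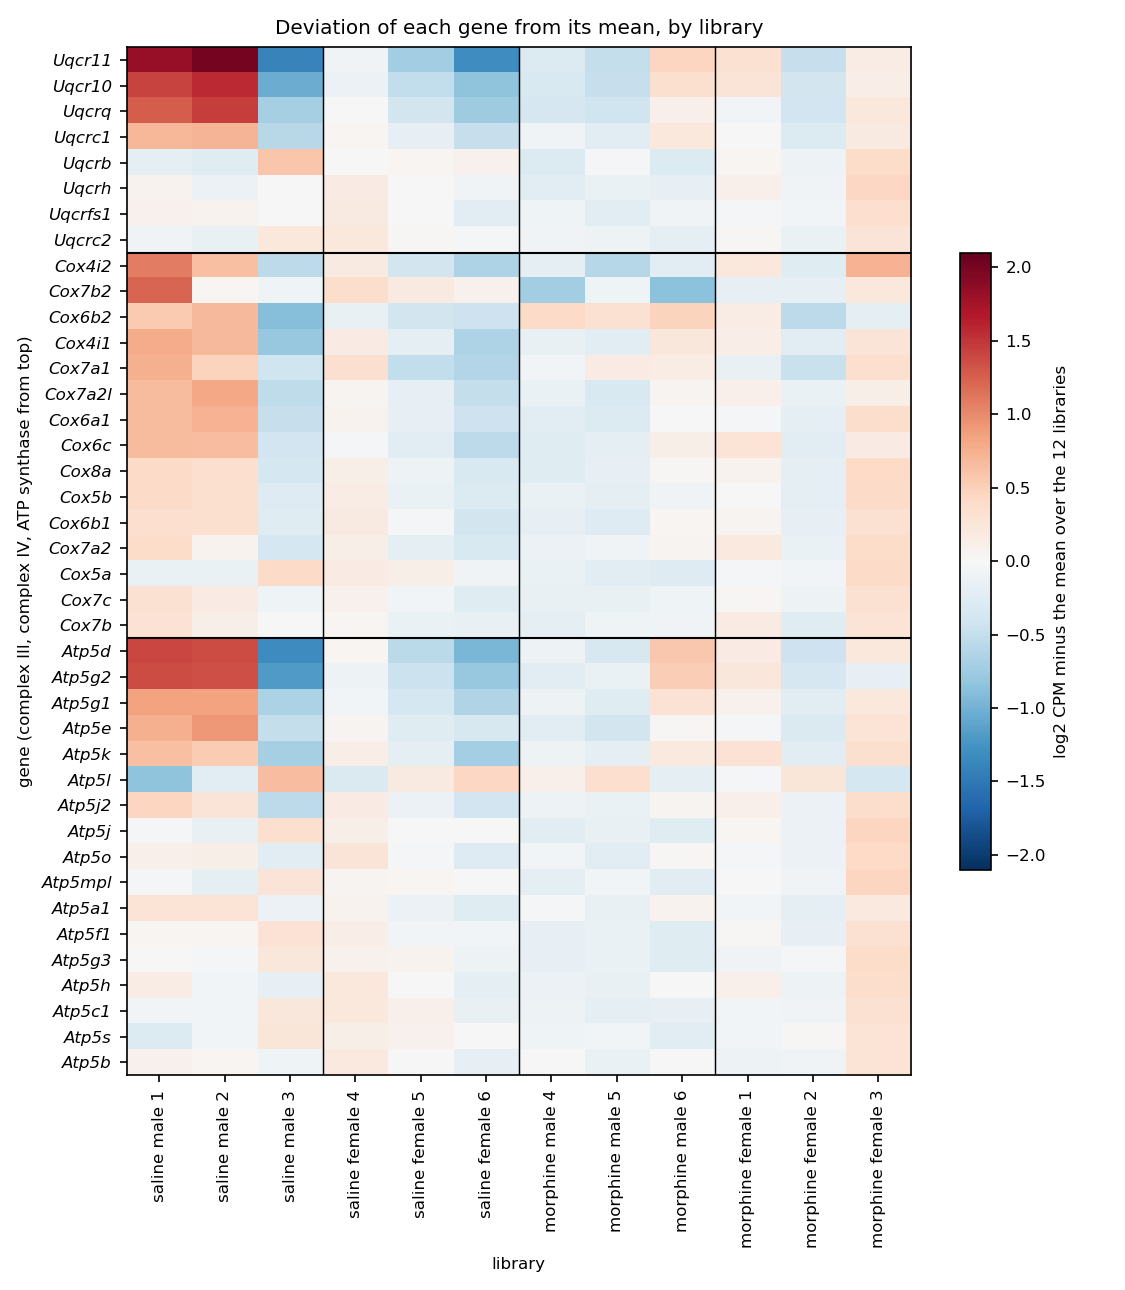
Deviation of the log2 CPM of each of the 40 tested genes from its mean over 12 libraries, with genes in rows by complex and libraries in columns by group, red above and blue below the mean. Saline males 1 and 2 are red for *Uqcr11*, *Uqcr10*, *Uqcrq*, *Atp5d* and *Atp5g2*, where saline male 3 is blue, and morphine female 3 is red in 37 of 40 rows.

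The promoters of the genes at both ends of this variation are shown because the genes moved together across libraries. They are 300-base windows from RefSeq on GRCm38.p6, from 250 bases before to 50 bases after the annotated start, read 5′ to 3′ on the gene's strand, which was the minus strand for all 4. *Uqcr11*, *Uqcr10* and *Atp5g2* were highest in saline males 1 and 2, and *Atp5l* was highest in saline male 3. Capitals mark matches on either strand to the letters of 5 motifs. The motifs were NRF1 (GCGC, any base, then TGCGC), ETS (CCGGAAG), the GC box (GGGCGG), the CCAAT box (CCAAT) and YY1 (AAGATGGCG), and none of the marked matches overlapped another.
Uqcr11, chr10:80406772-80407071: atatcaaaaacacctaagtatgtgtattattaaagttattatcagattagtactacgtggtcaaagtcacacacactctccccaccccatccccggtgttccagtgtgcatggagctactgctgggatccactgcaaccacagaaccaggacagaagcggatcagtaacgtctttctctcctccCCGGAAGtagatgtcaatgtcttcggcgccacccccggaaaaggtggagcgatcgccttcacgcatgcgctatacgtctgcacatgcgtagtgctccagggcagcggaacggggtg
Uqcr10, chr11:4704295-4704594: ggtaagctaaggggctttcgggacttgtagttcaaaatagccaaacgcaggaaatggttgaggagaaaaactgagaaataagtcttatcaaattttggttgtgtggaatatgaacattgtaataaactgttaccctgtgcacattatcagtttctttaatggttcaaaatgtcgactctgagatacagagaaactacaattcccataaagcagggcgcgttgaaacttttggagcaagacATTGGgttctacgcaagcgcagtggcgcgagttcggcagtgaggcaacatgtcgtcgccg
Atp5g2, chr15:102670998-102671297: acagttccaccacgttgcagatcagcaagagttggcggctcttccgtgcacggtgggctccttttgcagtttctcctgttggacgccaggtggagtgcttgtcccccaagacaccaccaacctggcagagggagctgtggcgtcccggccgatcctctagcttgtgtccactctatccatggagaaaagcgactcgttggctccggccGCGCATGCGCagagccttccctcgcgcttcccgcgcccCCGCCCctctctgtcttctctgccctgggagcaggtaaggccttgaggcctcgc
Atp5l, chr9:44920693-44920992: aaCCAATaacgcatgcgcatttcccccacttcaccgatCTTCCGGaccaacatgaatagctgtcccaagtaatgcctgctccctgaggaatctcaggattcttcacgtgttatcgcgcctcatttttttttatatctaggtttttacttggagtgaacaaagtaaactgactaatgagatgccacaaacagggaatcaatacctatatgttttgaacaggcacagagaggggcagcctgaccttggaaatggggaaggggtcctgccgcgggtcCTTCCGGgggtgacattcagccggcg

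*Uqcr11* held an ETS match, *Uqcr10* a CCAAT box, *Atp5g2* an NRF1 match and a GC box, and *Atp5l* 2 ETS matches and a CCAAT box. Of the 33 genes found in the promoter table, 7 (21.2%) held the NRF1 letters, against 4.8% of 27025 genes. ETS letters were in 9 (27.3%) against 9.1%, the GC box in 12 (36.4%) against 35.9%, CCAAT in 18 (54.5%) against 37.9% and YY1 in 1 (3.0%) against 1.5%. NRF1 and ETS factors such as GABP are known regulators of nuclear genes for respiration. A match is a description of these letters and not a bound site. The 3 genes that swung up together shared no motif among the 5.

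The variation between the saline males followed the GC content of the transcript. The mean of saline males 1 and 2 was set over saline male 3 for each gene. For 9 genes under 45% GC the median ratio was 0.791 (0.677 for all genes of that class), and for 10 genes of 45 to 50% it was 1.41 (0.875 for all). It was 1.52 (1.34 for all) for 11 genes of 50 to 55% and 2.85 (2.48 for all) for 10 genes over 55%. Thus the ratio was larger in classes of higher GC content, for these genes as for all genes, and in each class their median was above that of all genes. The ratio exceeded 2 for 16 of 40 genes (40%) and 17.95% of all tested genes. Across genes, which are not independent replicates, the log2 ratio had an r with GC content of 0.65 over the 40 genes and 0.75 over all tested genes.

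**Figure D3:**
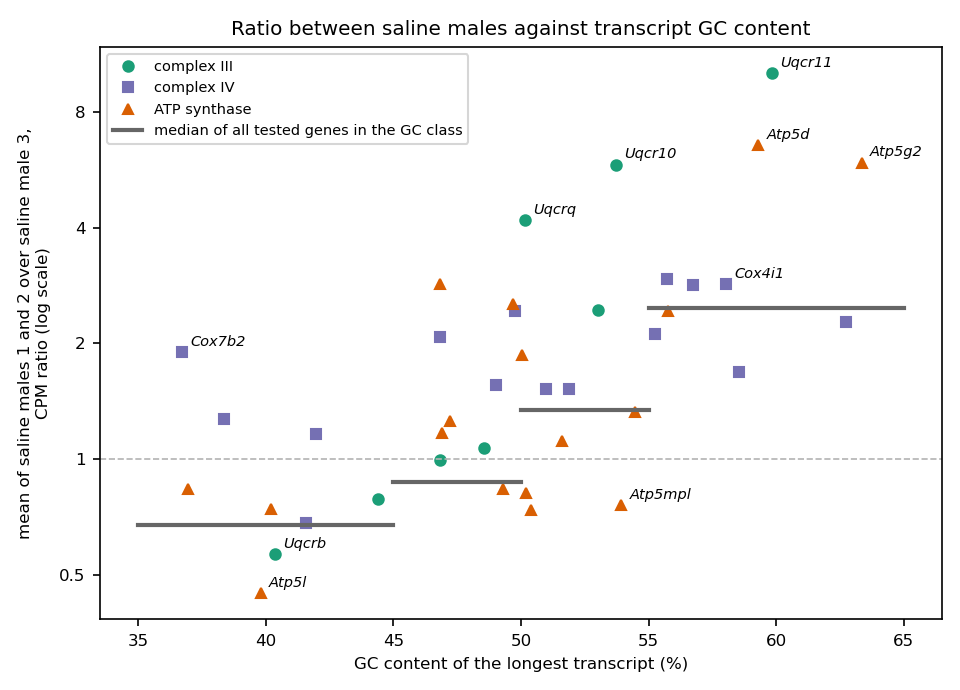
Ratio of the mean CPM of saline males 1 and 2 to saline male 3 on a log scale against the GC content of the longest transcript in percent, 1 point per gene with symbols by complex, and grey bars for the median of all tested genes in 4 GC classes. *Uqcr11*, *Uqcr10* and *Uqcrq* lie above the bar of their class, and *Atp5l* and *Uqcrb* lie below 1.

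Subtracting in each library the trend with GC content and exon length lowered the variation of some genes and raised that of others. The median SD of log2 levels went from 0.27 to 0.26 for the 40 genes and from 0.27 to 0.20 for all tested genes, and it was lower afterwards for 21 of the 40. All 10 genes over 55% GC had a smaller SD afterwards, with *Atp5g2* going from 0.76 to 0.29, *Cox4i1* from 0.46 to 0.19, *Atp5d* from 0.82 to 0.45 and *Cox8a* from 0.27 to 0.21. *Uqcr11* went from 1.06 to 0.69 and *Uqcr10* from 0.80 to 0.64. *Uqcrq* stayed near its first value, at 0.66 after 0.69. Among the genes with a larger SD afterwards, *Cox7c* went from 0.18 to 0.40, *Cox7b* from 0.18 to 0.32 and *Atp5f1* from 0.18 to 0.29. *Uqcr11*, *Uqcr10* and *Uqcrq* therefore kept a spread above the median of all genes after the trend was removed.

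To ask whether morphine altered these genes in both sexes together, 6 morphine mice were compared with 6 saline mice in a fit with sex as a covariate. A gene passed when its p before adjustment in edgeR was under 0.05 and its log2 fold change exceeded 0.26 in either direction. These are also the thresholds of the study. Of the 40 genes, 1 passed, *Cox7b2*, which was lower in morphine mice, beside 1.19% of all 18608 tested genes (0.58% lower). Across all tested genes 221 passed. Log2 fold changes were below 0 for 34 of 40 genes (57.4% of all tested genes), with a median of -0.06 against -0.02 for all. Scaling by total counts gave 23 of 40 below 0. The medians were -0.10 for complex III, -0.06 for complex IV and -0.04 for ATP synthase. Without morphine male 6 the median was -0.05 and no gene passed. None of the 40 genes separated the 6 morphine from the 6 saline mice, as 0.043% of all genes did.

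*Cox7b2* (chr5:71442824-71548205, minus strand), a testis isoform of the small subunit *Cox7b*, was low in every library, with 9 to 44 counts. Saline mice had a lowest level of 0.49 CPM, a median of 0.587 and a highest of 1.31 CPM, and morphine mice 0.266, 0.461 and 0.624 CPM. The groups overlapped, and the highest value belonged to saline male 1. The log2 fold change was -0.70 (SE 0.31) and the adjusted p in edgeR was 0.9999. It did not pass when saline male 1 (-0.40), saline female 4 (-0.71), morphine female 2 (-0.71), morphine male 4 (-0.60) or morphine male 6 (-0.58) was left out alone. Over all alternatives its adjusted p ran from 0.5565 to 1.

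The other genes with the largest differences in the fit of both sexes did not pass. In complex III these were *Uqcrq* at -0.42 (SE 0.35) and *Uqcr11* at -0.40 (SE 0.54) on the log2 scale. In complex IV they were *Cox4i2*, the lung and hypoxia isoform of subunit 4, at -0.17 (SE 0.35) and *Cox6a1*, the ubiquitous isoform of subunit 6a, at -0.16 (SE 0.21). In ATP synthase they were *Atp5e*, the ε subunit of F1, at -0.25 (SE 0.23) and *Atp5g2* at -0.22 (SE 0.37). All 6 had an adjusted p of 0.9999 in edgeR. Leaving out saline males 1 and 2 together, an alternative chosen after seeing the data, turned all 6 to above 0 and made 12 of 41 genes pass, with 11.7% of all genes passing.

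Within females, 3 morphine mice were compared with 3 saline mice. In all, 4 genes passed, each higher in morphine females, which was 10% of the 40 genes beside 1.81% of all tested genes (0.928% higher). They were *Uqcr11*, *Uqcr10*, *Cox6c* and *Atp5g1*. Log2 fold changes were above 0 for 37 of 40 genes (48.2% of all), with a median of 0.15 against -0.01 for all. By complex the medians were 0.14, 0.17 and 0.10 for complexes III, IV and ATP synthase. None of the 40 genes separated the female groups, as 5.65% of all genes did.

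*Uqcr11* had a log2 fold change of 0.66 (SE 0.28) in females (edgeR adjusted p = 0.9998), and the lowest morphine female at 17.98 CPM lay below the highest saline female at 23.7 CPM. *Uqcr10* was at 44.3, 28 and 40.6 CPM in morphine females and 33.8, 25.6 and 20.5 CPM in saline females, a log2 fold change of 0.50 (SE 0.20, edgeR adjusted p = 0.9998). Both genes were lowest in saline female 6 among females.
*Cox6c* (chr15:35925886-35938246, minus strand), an accessory subunit of complex IV, was at 193, 136 and 178 CPM in morphine females and 154, 134 and 108 CPM in saline females, a log2 fold change of 0.35 (SE 0.15, edgeR adjusted p = 0.9998). The gene for subunit c *Atp5g1* (chr11:96068852-96075670, minus strand) was at 95.6, 77.8 and 104.9 CPM in morphine females and 86.8, 69.7 and 58.5 CPM in saline females, a log2 fold change of 0.37 (SE 0.15, edgeR adjusted p = 0.9998). In each of these genes morphine female 2 lay within the range of the saline females.

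Among the genes with the largest differences in females that did not pass, *Cox4i2* was at 0.55 (SE 0.37), *Atp5d* at 0.45 (SE 0.24) and *Atp5k*, which encodes membrane subunit e, at 0.37 (SE 0.20) on the log2 scale. The median of the 40 genes was 0.01 without morphine female 3, when 21 of 40 were above 0. The 4 passing genes all lost the call without saline female 5, saline female 6, morphine female 1 or morphine female 3. Without saline female 4 the passing genes were 12, when 7.95% of all genes passed, and without morphine female 2 they were 10, when 3.73% of all genes passed.

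Within males the direction was the opposite. Log2 fold changes were below 0 for 39 of 41 genes (62.4% of all), with a median of -0.30 against -0.06 for all. Scaling by total counts moved the median of all genes by 0.125, from -0.06 to 0.06, and put 34 of 41 genes below 0, but the genes' median minus that of all genes was -0.235 before and -0.236 after. The medians were -0.36 for complex III, -0.31 for complex IV and -0.21 for ATP synthase. Of these genes only *Atp5f1* passed, which was 2.44% of the genes beside 2.99% of all tested genes (1.07% lower).

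*Atp5f1* (chr3:105942698-105960099, minus strand), which encodes subunit b of the peripheral stalk, was at 350.3, 353 and 420.5 CPM in saline males and 302, 309.8 and 288 CPM in morphine males. The groups did not overlap. The log2 fold change was -0.33 (SE 0.13) and the edgeR adjusted p was 0.9999. It did not pass without saline male 3 (-0.20), morphine male 4 (-0.34), morphine male 5 (-0.30) or morphine male 6 (-0.31), nor with the DESeq2 test or exactTest, and scaling by total counts gave -0.20, under the fold threshold. Over all alternatives its adjusted p ran from 0.158 to 1.
The male groups did not overlap for 7 of 41 genes (17.07%), against 9.1% of all genes. They were *Atp5f1*, *Atp5c1* (the γ subunit of F1), *Atp5g3* (a gene for subunit c), *Cox5a* and *Cox7b* (subunits of complex IV), *Uqcrh* and *Uqcrfs1* (the Rieske iron-sulfur protein). Some gaps were narrow. The lowest saline male and highest morphine male were at 99.75 and 99.6 CPM for *Cox5a* and at 231.5 and 228.7 CPM for *Uqcrh*. TMM factors were 0.9503 to 0.9732 in saline males and 1.025 to 1.056 in morphine males. CPM divide by these factors, so the scaling itself placed saline males higher relative to morphine males. Overlap was judged on CPM with TMM scaling only and was not examined with other scaling. Leaving out a mouse can never make separate groups overlap, so it does not test this result. All 7 were lower in morphine males, by 0.17 to 0.33 on the log2 scale, and their GC contents ran from 37.0% to 50.2%.

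The small subunits with large differences in males overlapped between groups. *Uqcr11* was at -1.46 (SE 0.75), *Uqcr10* at -1.14 (SE 0.61) and *Uqcrq* at -1.14 (SE 0.50) on the log2 scale, with an edgeR adjusted p of 0.9999 for each. For all 3, saline males 1 and 2 were above every morphine male and saline male 3 was below every one. *Atp5d* at -0.81 (SE 0.64) and *Atp5g2* at -0.81 (SE 0.60) had the same order of libraries. *Cox4i2* was at -0.91 (SE 0.43) and *Cox6a1* at -0.58 (SE 0.30). Without saline male 3, 24 of 42 genes passed (57.1%), beside 28.6% of all genes. Without morphine male 6 none passed and 39 of 41 were below 0 with a median of -0.31, and *Uqcr11* was at -1.82 and *Uqcr10* at -1.44.

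**Figure D4:**
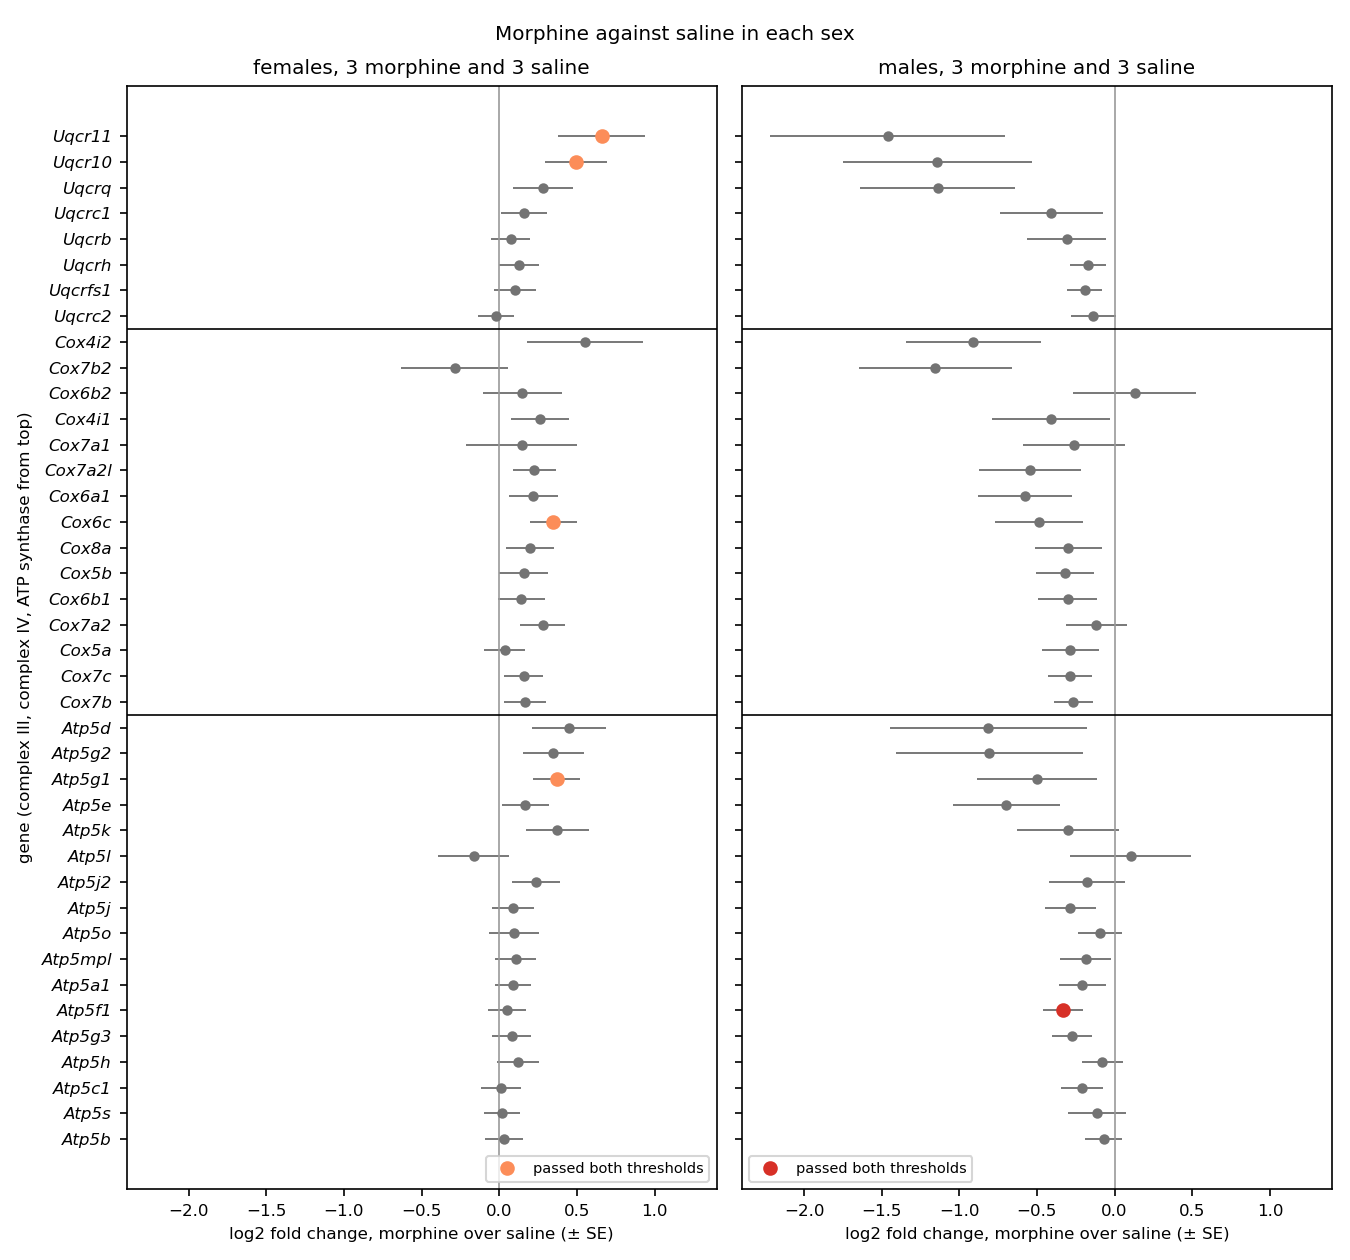
Log2 fold change of morphine over saline with its SE for the 40 genes of the sex-combined fit, in females on the left and males on the right (3 morphine and 3 saline mice each), with coloured points for genes that passed both thresholds. Points lie right of 0 for 37 of 40 genes in females and left of 0 for most genes in males, where the widest error bars belong to *Uqcr11*, *Atp5d*, *Uqcr10* and *Atp5g2*.

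The difference between the sexes in response was tested as an interaction of treatment and sex over the 12 mice. In the interaction 5 genes passed, which was 11.9% of 42 genes beside 2.94% of all tested genes, and all 5 were lower in the direction of males minus females (1.33% of all genes). Interaction values were below 0 for 41 of 42 genes (54.4% of all), with a median of -0.42 against -0.03 for all. With scaling by total counts 38 of 42 were below 0, and the median of all genes moved by 0.101, to 0.07. Complex III had a median of -0.46, complex IV -0.48 and ATP synthase -0.34, and the passing genes were 3 of complex III and 2 of complex IV.

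*Uqcr11* had an interaction of -2.11 (SE 0.88) and an edgeR adjusted p of 0.9846. *Uqcr10* was at -1.62 (SE 0.69) and *Uqcrq* at -1.41 (SE 0.58), with the same adjusted p of 0.9846. All 3 are accessory subunits of complex III.
*Uqcrq* (chr11:53427922-53430831, minus strand) was at 95.6, 107 and 24.3 CPM in saline males and 39.4, 30 and 23.5 CPM in saline females. It was at 31, 29.5 and 42.6 CPM in morphine males and 38, 29.7 and 45.7 CPM in morphine females. Outside saline males 1 and 2, every library lay between 23.5 and 45.7 CPM.
*Cox4i2* (chr2:152754173-152765037, plus strand) was at 2.12, 1.53 and 0.643 CPM in saline males, 1.11, 0.729 and 0.595 CPM in saline females, 0.832, 0.623 and 0.827 CPM in morphine males and 1.14, 0.807 and 1.65 CPM in morphine females. Its interaction was -1.44 (SE 0.59, edgeR adjusted p = 0.9846), on 19 to 71 counts per library. *Cox6c* was at 252, 249 and 120 CPM in saline males and 133, 138 and 173 CPM in morphine males. Its interaction was -0.82 (SE 0.35, edgeR adjusted p = 0.9846).

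The interaction changed with the libraries included. Without saline males 1 and 2, a setting chosen after seeing the data, the median of the genes was -0.02, and *Uqcr11*, *Uqcr10* and *Uqcrq* were at 0.69, 0.44 and 0.22. Leaving out 1 mouse at a time kept the median below 0, from -0.64 to -0.29, but changed the calls. No gene passed without saline male 1, saline male 2, saline female 5, saline female 6, morphine female 3 or morphine male 5, and only *Cox4i2* passed without morphine male 4. The passing genes were 24 without saline male 3 (24.1% of all genes passed), 12 without saline female 4 (4.89%), 10 without morphine female 2 (4.41%) and 4 without morphine female 1 (2.31%). Without morphine male 6 the passing genes were again *Cox4i2*, *Uqcr11*, *Uqcr10*, *Uqcrq* and *Cox6c*.

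**Figure D5:**
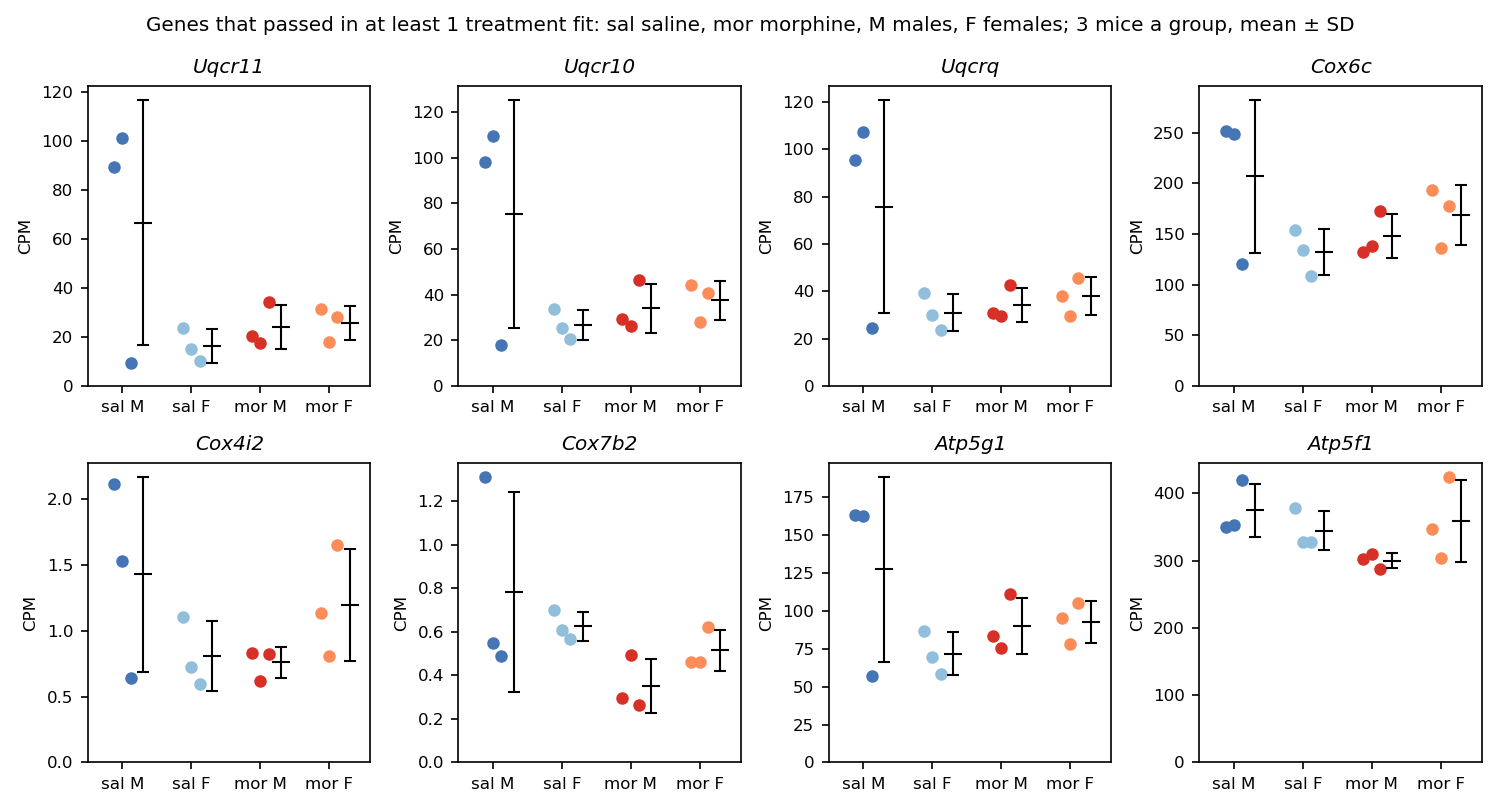
CPM of the 8 genes that passed in at least 1 treatment fit, 1 panel per gene from 0, with 3 mice per group as points and the mean ± SD beside them. In *Uqcr11*, *Uqcr10*, *Uqcrq*, *Cox6c* and *Atp5g1* saline males 1 and 2 stand above all other libraries, and in *Atp5f1* the morphine males lie below the saline males.

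The saline mice alone were compared between sexes, since both treatment contrasts use them. Of the 40 genes, 3 passed, all higher in saline males, which was 7.5% of them beside 2.47% of all tested genes (1.91% higher in males). *Uqcr11* had a log2 difference of 2.05 (SE 0.76), *Uqcr10* of 1.51 (SE 0.58) and *Uqcrq* of 1.31 (SE 0.50), with an edgeR adjusted p of 0.9874 for each. Log2 differences were above 0 for 35 of 40 genes (52.9% of all), with a median of 0.26 against 0.02 for all, and with scaling by total counts for 27 of 40. Medians were 0.34 in complex III, 0.33 in complex IV and 0.07 in ATP synthase. Yet the groups overlapped for all 40 genes (4.02% of all genes did not overlap). None passed without saline male 1, saline male 2, saline female 5 or saline female 6, and 27 of 41 (65.9%) passed without saline male 3, when 37.3% of all genes passed. Both treatment contrasts within a sex share these saline mice with this comparison.

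The share of each paralog within its family does not depend on scaling between libraries. Shares of the per-kilobase level were compared between treatments by exact two-sided permutation tests over mice, 27 tests in all, and none had an adjusted p under 0.05. The ubiquitous isoform held at least 97.78% of the Cox4i, Cox6a, Cox6b, Cox7a, *Cox7b* and Cox8 families in every library. *Cox7b2* held 0.605% ± 0.153 of the *Cox7b* family in morphine mice and 0.933% ± 0.285 in saline mice (SD, n = 6 each, exact permutation p = 0.015, adjusted p = 0.405). *Cox4i2* held 0.686% ± 0.173 of the Cox4i family in morphine mice and 0.728% ± 0.103 in saline mice (SD, n = 6 each, exact permutation p = 0.65, adjusted p = 0.924). Within a sex, 3 mice against 3 cannot go below an exact p of 0.1, which 3 shares reached. They were *Cox7b2* in females (0.681% in morphine against 0.915% in saline), *Cox4i2* in males (0.569% against 0.794%) and *Cox6b2* in males (0.861% against 0.606%). Without morphine male 6 the *Cox7b2* share differed by -0.285 percentage points over both sexes (exact permutation p = 0.04, adjusted p = 0.81).

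Subunit c, which forms the rotating ring, is encoded by 3 genes that give the same mature protein. *Atp5g3* held 84.2% ± 3.28 of the family in morphine mice and 83.6% ± 8.55 in saline mice (SD, n = 6 each, exact permutation p = 0.94, adjusted p = 1). Its share was 72.9% in both saline males 1 and 2 and 92.1% in saline male 3, the ends of the range over all 12 libraries. In the same order *Atp5g2* held 11.04% and 11.01% in saline males 1 and 2 and 1.97% in saline male 3, and *Atp5g1* 16.1% in both and 5.96%. The GC contents of *Atp5g1*, *Atp5g2* and *Atp5g3* were 46.8%, 63.3% and 49.3%.

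The partners of these genes showed no passing difference. *Cyc1*, the nuclear gene for cytochrome c1 of complex III, was at 206, 207 and 76.8 CPM in saline males, 155, 111 and 90.1 CPM in saline females, 139.7, 118 and 169 CPM in morphine males and 136, 116 and 163 CPM in morphine females. Its log2 fold change was 0.02 (SE 0.22) in the sex-combined fit. *mt-Cytb*, the cytochrome b of complex III, ranged from 7459 to 12270 CPM and *mt-Co1*, the catalytic subunit of complex IV, from 16180 to 28240 CPM. Both were highest in saline male 3 and lowest in morphine male 6. Their log2 fold changes were -0.09 (SE 0.12) and -0.14 (SE 0.12). In saline male 3, 14 of the 40 tested nuclear genes were at their lowest and 3 at their highest. *mt-Co2*, *mt-Co3* and *mt-Atp6* had 2, 4 and 3 counts in all, and 99.49%, 99.85% and 99.48% of their 100-base windows occur in annotated pseudogenes. *mt-Atp8* had 1 count and 0% of such windows. These low counts were not read as levels. Of the 44 genes, 5 had more than 10% of windows in another gene, and of those that passed a test *Atp5g1* had the most, 6.22%.

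Other respiratory chain genes were counted in the same fits. In the sex-combined fit 0 of 38 complex I genes passed, none had an edgeR p under 0.05 before adjustment, and 33 were below 0 (57.4% of all genes). In females 35 were above 0 (48.2% of all), with a median of 0.17 against -0.01 for all. In females 1 passed, *Ndufs7*, which encodes an iron-sulfur subunit, beside 1.81% of all genes. In males 37 were below 0 (62.4% of all), with a median of -0.39 against -0.06 for all. In males 5 passed, all lower, beside 1.07% of all genes that passed lower. Among them were *Ndufc2* at -0.62 (SE 0.15, edgeR adjusted p = 0.9999) and *Ndufc1* at -0.54 (SE 0.14, edgeR adjusted p = 0.9999), both accessory subunits. In the interaction 7 of the 38 passed below 0, beside 1.33% of all genes. Of 4 complex II genes, *Sdhd* passed in males at -0.36 (SE 0.12, edgeR adjusted p = 0.9999). Of 23 assembly factors of complex IV tested, 3 passed in males, all lower (*Cox16*, *Coa4* and *Coa6*), beside the same 1.07% of all genes. *Coa4* also passed in the sex-combined fit, as 1.19% of all genes did. None of the 6 assembly factors of complex III or the 6 assembly and inhibitory factors of ATP synthase passed in a treatment fit. Nor did any of 12 regulators of mitochondrial biogenesis, and none of the genes of these lists had an edgeR p under 0.05 before adjustment. Medians of complex I thus had the same signs as those of the 44 genes in each fit, and the contrasts share their libraries.

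Some markers of other cell types and tissue passed in the treatment comparisons, and others did not. No astrocyte, microglia or red blood cell gene tested passed in a treatment fit. Their medians in males were -0.15, -0.185 and -0.66, against -0.06 for all genes. The summed level of 4 choroid plexus genes was 411 to 826.5 CPM in morphine males and 260.5 to 519 CPM in saline males. Of the 4, 3 passed as higher in morphine males, as did 349 of all 18166 tested genes. The summed level was 28.9 to 162 CPM in morphine females and 9.59 to 463 CPM in saline females. The median log2 fold change of the 4 was 0.80 in males, -0.78 in females and 0.06 in the sex-combined fit. Of 5 cerebellar granule cell genes, 3 passed higher in males and in the sex-combined fit, where 0.607% of all genes passed higher. Their summed level was 108 to 175 CPM in morphine males and 87.9 to 123 CPM in saline males. Neuronal genes summed to 6169 to 8307 CPM in saline males and 6217 to 6506 CPM in morphine males, and none of the 8 passed. Oligodendrocyte genes summed to 38230 to 60160 CPM in saline males and 33450 to 42390 CPM in morphine males. All 6 had a log2 fold change below 0 in males (62.4% of all genes), with a median of -0.34. Of the 6, 1 passed, *Mobp*, beside 1.07% of all genes that passed lower. Without morphine male 6, morphine males were at 772.6 to 826.5 CPM for choroid plexus, 144 to 175 CPM for granule cell and 33450 to 40490 CPM for oligodendrocyte genes. The 4 meningeal fibroblast genes had fold changes below 0 in the female, male and sex-combined fits, with medians of -0.47, -0.24 and -0.33, and *Dcn* passed in females at -0.76 (SE 0.19, edgeR adjusted p = 0.9998) and in the sex-combined fit. Among all genes, 160 of 18109 passed lower in females and 0.58% in the sex-combined fit. The fibroblast genes summed to 63.96 to 114 CPM in morphine females and 100.8 to 142 CPM in saline females. Of 7 skeletal muscle genes 5 were tested, with medians of -1.44 in males, 0.27 in females and -0.75 in the sex-combined fit. Only 1 passed, as higher in the sex-combined fit, where 0.607% of all genes did. The 7 summed to 1.65 to 34.2 CPM in saline males, highest in saline male 2, and 3.24 to 6.62 CPM in morphine males. None of these markers was at 0 in a group except the red blood cell gene *Hba-a2* in morphine females. The part of these markers in the values of the respiratory genes was not tested.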

How the data were processed

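Total RNA from the brainstem of 12 mice was sequenced as poly-A libraries with 100-base single reads. Per the study's methods, the authors used Trimmomatic for trimming, STAR for alignment (mm10) and featureCounts for counting over exons. Versions, strand and the handling of reads that map to several places are not given in the sources used here. The deposited values are whole-number counts per gene, which the study calls normalized but which sum to different totals.

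Genes passed edgeR's filterByExpr and were tested with TMM scaling and quasi-likelihood fits over all genes, with Benjamini-Hochberg adjustment (R 4.3.3, edgeR 4.0.16, limma 3.58.1). Sex was a covariate in the fit of both sexes, and dam, which is not in the labels, was not fitted. CPM were counts over the library's total multiplied by its TMM factor. Symbols were matched to GENCODE M21 for positions, exon length and GC content. Log2 levels used a prior count of 2. The fits were tested on simulated data, where the quasi-likelihood fits called 3.915% to 5.203% of unchanged genes and 98.5% to 100% of changed genes. With a made trend with GC content, the quasi-likelihood fit called 34.41% of unchanged genes, against 5.155% with offsets for GC content. Libraries of these data carried such trends, so the lower rates cannot be taken over to the fits reported here.

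Named genes were those passing in a treatment fit, the 2 per complex with the largest change at a mean of at least 1 CPM, the 3 with the smallest interaction p, the paralog families and the extremes of level. Any other gene was named after its values were seen. Genes and lists were chosen with earlier results of these data known. Alternatives were other scaling, DESeq2 1.42.0, exactTest, other filters, loess offsets for GC content and exon length, the replicate number as a block, contrasts from the fit of 12 mice, no covariate and leaving out mice.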

Additional observations from a re-analysis of the deposited data

Results flagged for a closer look

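In groups of 6 mice, the highest or lowest library stood apart from the others for 6 of 58 sets, by a gap above Dixon's limit. A set was a named gene, or the genes' percent of all counts, in 1 treatment. The limit gives about 1 in 20 by chance only for independent, normally distributed values. *Cox8c* counts are not of that kind, and some genes were named for large differences in these data, so that rate is no measure for these sets. Morphine female 3 was at 1764 CPM for *Atp5b*, against 1321 to 1453 CPM in the other morphine mice, and at 432 CPM for *Atp5g3*, against 277 to 322.3 CPM. Saline male 2 was at 0.897 CPM for the muscle isoform *Cox6a2*, against 0.0912 to 0.1225 CPM in the other saline mice. Saline male 1 was at 1.311 CPM for *Cox7b2*, against 0.4901 to 0.6993 CPM. *Cox8c* was at 0.03039 CPM in saline female 5 and 0.03278 CPM in morphine male 5, 1 count each, and at 0 in the other libraries.

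In the edgeR interaction 5 genes passed before adjustment, each with the lower log2 fold change in males. Of all tested genes 2.94% passed, 1.33% as lower. No p passed after adjustment, so a difference in response between the sexes was not established. Without saline males 1 and 2 together, a setting chosen after seeing the data, *Uqcr11*, *Uqcr10* and *Uqcrq* turned to 0.692, 0.435 and 0.215. The interactions on the log2 scale were -1.445 for *Cox4i2*, -2.107 for *Uqcr11*, -1.622 for *Uqcr10*, -1.407 for *Uqcrq* and -0.82 for *Cox6c*. All had an adjusted p of 0.9846.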

How the results depend on the processing

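In the sex-combined fit the 1 passing gene became 0 with at least 10 counts in every library, with loess offsets, with the replicate number as a block and with the block and offsets together, and 12 without saline males 1 and 2 together, a setting chosen after seeing the data. It ranged from 0 to 1 when 1 mouse was left out. In females the 4 became 9 without a filter (3.15% of all genes passed) and 0 in the contrast from all 12 mice (1.15%). They ranged from 0 to 12 when 1 mouse was left out, with 7.95% of all genes passing at the 12. In males the 1 became 0 with total counts (4.44% of all genes passed), 5 with DESeq2 (2.94%) and 9 without a filter (2.83%). It became 7 with loess offsets (6.73%), 3 with exactTest (2.98%) and 7 in the contrast from all 12 mice (4.15%). Leaving out 1 mouse gave 0 to 24, with 28.6% of all genes passing at the 24. The interaction's 5 became 8 with DESeq2 (3.48% of all genes passed) and 14 without a filter (4.44%). They ranged from 0 to 24 when 1 mouse was left out, with 24.1% of all genes passing at the 24. Without saline males 1 and 2 together the median of the interaction was -0.016. The 3 of the saline sexes ranged from 0 to 27, with 37.3% of all genes passing at the 27. Paralog shares with an unadjusted p under 0.05 ranged from 1 to 2. The cause of these changes was not tested.

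Without saline males 1 and 2 the sex-combined values turned to 0.36 for *Uqcrq*, 0.876 for *Uqcr11*, 0.46 for *Cox4i2*, 0.255 for *Cox6a1*, 0.224 for *Atp5e* and 0.637 for *Atp5g2*, and the interaction to 0.692 for *Uqcr11*, 0.435 for *Uqcr10* and 0.215 for *Uqcrq*. *Atp5g2* turned to 0.007 with block and offsets. *Cox4i2* ranged from -0.397 to 0.076 when 1 mouse was left out.

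Mice of the same number did not deviate together (r from -0.36 to 0.18). They differed in sex and treatment, so this does not settle whether the numbers pair them. With the replicate block 204 genes of the table passed in place of 221, with *Cox7b2* at -0.665, not passing. Without a filter 754, 1094, 985 and 1665 genes of the table passed in the sex-combined, female, male and interaction fits, in place of 221, 328, 543 and 559. With loess offsets 1223 passed in males and 1090 in the interaction. Without saline males 1 and 2 together it was 2264 in the sex-combined fit and 3635 in the interaction. Leaving out 1 mouse gave 177 to 458, 208 to 1482, 253 to 5341 and 290 to 4695, the highest in males and the interaction without saline male 3.

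Over the alternatives the edgeR adjusted p ran from 0.0015 to 1 for *Uqcr11* and from 0.0418 to 1 for *Uqcr10* in females, lowest without a filter, and from 0.008 to 1 for *Uqcr11* and *Uqcr10* in the interaction, lowest without saline male 3. Without saline male 3 it was also under 0.05 in males for *Uqcr11* (0.00958), *Uqcr10* (0.0108), *Cox6a1* (0.0108), *Atp5g2* (0.0147), *Atp5d* (0.0168) and *Cox4i2* (0.0347), in the interaction for *Uqcrq* (0.008), *Cox6c* (0.0106) and *Cox4i2* (0.0353), and between the saline sexes for *Uqcr11* (0.00053), *Uqcr10* (0.00044) and *Uqcrq* (0.00049).

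With 3 mice per group, no gene described here had an adjusted p under 0.05 in the fits as reported, and a gene such as *Cox7b2*, at 9 to 44 counts, is limited by counting error. The median of the genes was above 0 in females under every alternative run, down to 0.007 without morphine female 3, and below 0 in males. In the sex-combined fit it ran from -0.162 to 0.159, and was above 0 without saline male 1 (0.003) and without saline males 1 and 2 together.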
